A study of Mus musculus with 16 samples.

Results

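Rasgrp2, Rasgrp1 and Rap1gap regulate the small GTPases Ras and Rap, and Rasd2 is itself a Ras-like GTPase. For short, all 4 are called regulators below. They were taken by gene name, every read of an isoform assigned to 1 of the 4 symbols being counted, and they are 4 of 21627 genes with reads and 3262 of 9697336 reads assigned to named genes. The reads are full-length cDNAs (Iso-seq on the PacBio Sequel II) from polyadenylated RNA treated with a 5′-phosphate-dependent exonuclease, and each shows which exons were joined. The cDNA was amplified by PCR without molecular identifiers, so that reads are not independent molecules. RNA came from the cortex and the striatum of the left hemisphere of 3-month-old male mice, either R6/2 or non-transgenic (NT), with 4 samples per genotype and region and 16 in all. The line is B6CBA-Tg(HDexon1)62Gpb/3J. R6/2 mice carry a fragment of human huntingtin, exon 1 with an expanded CAG repeat, under the human promoter and beside both of the mouse's own Htt genes, so they model the exon 1 fragment and not the full-length mutant protein. The transgene itself was not analysed here. Labels do not say whether the cortical and striatal samples with 1 number came from 1 mouse, and p values measure the spread between these samples.

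Ras and Rap are molecular switches that signal while bound to GTP. Guanine nucleotide exchange factors load them with GTP and switch them on, and GTPase activating proteins make them hydrolyse it and switch them off. In striatal projection neurons, the GABAergic cells that make up most of the striatum and that degenerate early in Huntington's disease, this cycle carries calcium and dopamine signals to the MAP kinase cascade and to integrins and the cytoskeleton. Rasgrp2 (CalDAG-GEFI) is an exchange factor for Rap that responds to calcium and diacylglycerol. Rasgrp1 (CalDAG-GEFII) is a related exchange factor that acts on Ras. Rasd2 (Rhes) is itself a Ras-like GTPase that is enriched in the striatum and is known to bind mutant huntingtin. Rap1gap is the opposing enzyme of Rap, a GTPase activating protein for Rap1.

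In GENCODE M21 (GRCm38, mm10) Rasgrp2 (ENSMUSG00000032946) lies at chr19:6399340-6415216 on the plus strand and Rasgrp1 (ENSMUSG00000027347) at chr2:117279993-117343001 on the minus strand. Rasd2 (ENSMUSG00000034472) lies at chr8:75213944-75224113 and Rap1gap (ENSMUSG00000041351) at chr4:137664726-137729861, both on the plus strand. TALON, the program that sorted the reads, calls an isoform known when its splice junctions match an annotated transcript, NIC when known splice sites are joined in a new combination, NNC when a splice site is not annotated, and ISM when the read holds only a stretch of an annotated chain. Known, NIC and NNC reads are called complete below. Gene reads are the sum of all 4 classes.

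The 16 samples held between 202664 and 1349108 gene reads. For striatal NT 1, NT 2, R6/2 2 and R6/2 3 there are 2 sets of counts, which the labels call replicates of 1 sample and which were summed, and these 4 samples were deeper (827491 to 1349108 gene reads) than the other striatal samples (251336 to 671290). They also held longer molecules, 2142 to 2225 nt on average against 1620 to 1886 nt, and fewer ISM reads, 11.9 to 13.8% against 15.5 to 20.1%. Each genotype has 2 samples of either kind, and the number of sets is a term in all striatal models. Summed over 12 markers of striatal projection neurons, reads scaled to the effective library size (CPM) were 10912 to 14787 in striatal NT samples, 2062 to 3539 in striatal R6/2, 442 to 526 in cortical NT and 129 to 168 in cortical R6/2 samples. Cortical excitatory markers summed to 157 to 249 CPM in the cortex and to 56.5 or less in the striatum.

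The sequences below are an annotated alternative Rap1gap exon and the Rasd2 junction that a read of the last exon alone lacks. Both were matched to the isoforms described below by length alone. The Rap1gap exon of 78 bases (26 codons, all coding) at chr4:137723746-137723823 is annotated in 1 transcript, ENSMUST00000141306. In 3 other transcripts the exons on both sides of it, chr4:137721826-137721957 and chr4:137724692-137724801, are joined directly. Capitals mark the exon itself, with 20 bases of each neighbouring exon in lower case, and for Rasd2 they mark the first 20 bases of the last exon. Sequences are 5′ to 3′ from the GENCODE M21 transcripts.
Rap1gap with the exon: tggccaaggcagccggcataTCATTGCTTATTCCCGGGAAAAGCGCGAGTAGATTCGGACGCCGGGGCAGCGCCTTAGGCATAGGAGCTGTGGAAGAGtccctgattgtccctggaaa
Rap1gap without the exon: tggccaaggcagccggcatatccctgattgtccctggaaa
Rasd2 exon 2 to exon 3: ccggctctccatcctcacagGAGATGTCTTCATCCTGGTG

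First, the level of each regulator was compared between R6/2 and NT mice in the striatum, the question being whether the mutant fragment goes with a change in this signalling arm where the projection neurons lie. Reads of Rasgrp2, the Rap exchange factor, fell 4.49-fold and those of Rap1gap, the Rap inactivator, fell 2.08-fold. Transcripts of an enzyme that switches Rap on and of one that switches it off were thus both lower in R6/2. Protein was not measured in these data. Neither Rasgrp1 nor Rasd2 passed the test. Of the 4 regulators 2 were called lower, beside 3.84% of the 7658 genes tested, and DESeq2 called 2 as well. All 4 had an unadjusted p under 0.05. For this count and the unadjusted counts below, the share of all genes at that threshold was not counted, so no excess can be read from them. In bulk tissue, fewer cells of a type and less RNA per cell cannot be told apart.

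Rasgrp2 stood at 149, 164, 171 and 157 CPM in striatal NT samples 1 to 4, and at 38, 34.6, 47.7 and 17.2 CPM in R6/2 samples 1 to 4. The highest R6/2 sample lay well below the lowest NT sample, and NT samples were close to each other (160 ± 9.44 CPM, SD, n = 4) whether they had 1 or 2 sets of counts. The fitted log2 fold change was -2.17 ± 0.21 (SE; edgeR quasi-likelihood test, adjusted p = 0.000153). Behind these values stand 31 to 202 reads per NT sample and 7 to 45 per R6/2 sample.

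Rap1gap was found at 314, 293, 233 and 193 CPM in NT and at 79.0, 144, 174 and 113 CPM in R6/2 striatum. Again no R6/2 sample reached the lowest NT sample, although within each genotype the 2 samples with 2 sets of counts were the higher ones. Its log2 fold change was -1.06 ± 0.16 (edgeR, adjusted p = 0.00263). Without the sets term the size was the same (-1.04) but the call was lost (edgeR, adjusted p = 0.125), as it was with the first set of counts alone (-0.86, adjusted p = 0.284) and with complete reads only (-0.89, adjusted p = 0.0531). Groups without overlap and lower in R6/2 were seen for these 2 regulators, and for 4.28% of all genes tested.

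Rasgrp1, the Ras exchange factor, gave 163, 152, 110 and 86.3 CPM in NT and 85.1, 118, 125 and 73.7 CPM in R6/2 striatum, and the groups overlapped. The log2 fold change of -0.38 ± 0.15 did not pass the test (edgeR, adjusted p = 0.208). In both genotypes the samples with 2 sets of counts were above those with 1 set.

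Rasd2 was the least even of the 4, with 112, 29.2, 69.0 and 218 CPM in NT and 21.3, 33.5, 55.1 and 29.5 CPM in R6/2 striatum. NT 2 lay below 3 of the 4 R6/2 samples. The log2 fold change was -1.32 ± 0.49 (edgeR, adjusted p = 0.173). Between the 2 samples of each genotype with 1 set of counts the R6/2 mean was 17.7% of the NT mean, and between those with 2 sets it was 62.9%. For Rasgrp2 the same shares were 16.8% and 26.3%, for Rap1gap 45.1% and 52.3%, and for Rasgrp1 80.9% and 77.0%. A test without the filter on low counts called Rasd2 (-1.22, edgeR, adjusted p = 8.51e-05). Its SE there was 0.24, against 0.49 with the filter on the same reads, so that the spread between samples weighed less. The share of all genes called by that fit was not counted.

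**Figure D1:**
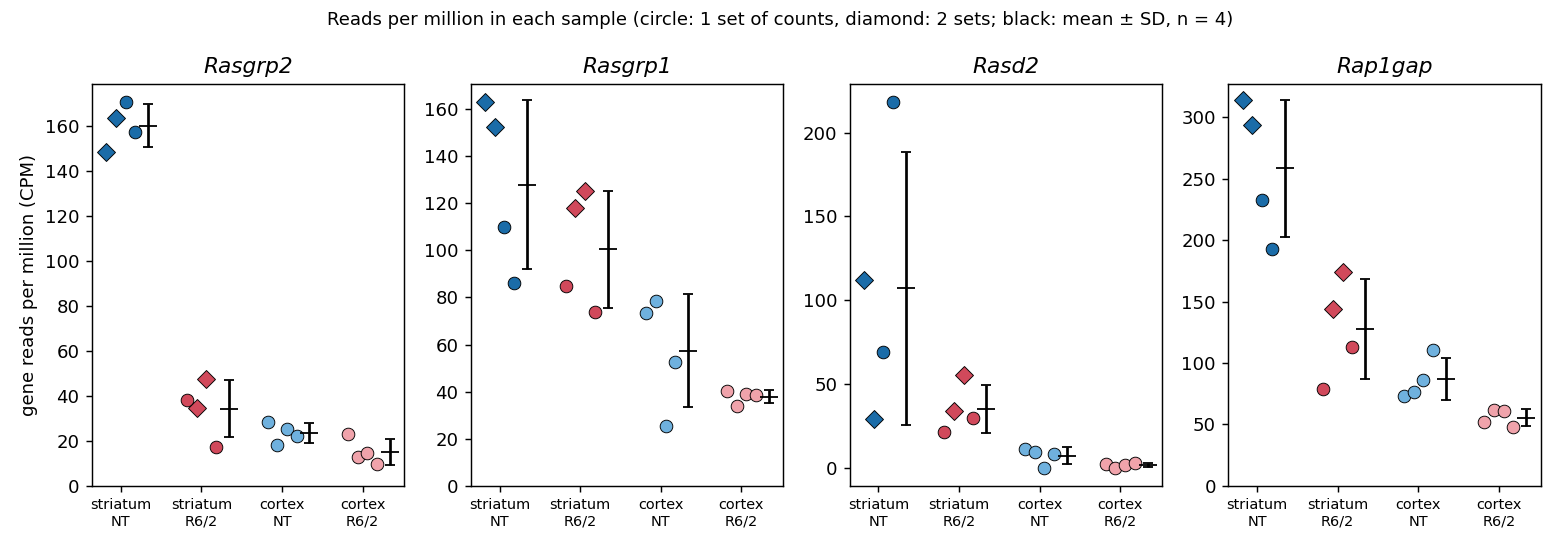
Gene reads scaled to library size (CPM, linear axes) of the 4 regulators in each of the 16 samples, by region and genotype; circles are samples with 1 set of counts, diamonds those with 2, and black bars the mean ± SD of 4 samples. Rasgrp2 separates the striatal genotypes most clearly (149 to 171 against 17.2 to 47.7 CPM), and the NT samples of Rasd2 are spread from 29.2 to 218 CPM.

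In the cortex all 4 regulators were at lower levels, and none was called different between R6/2 and NT mice (0 of 3 tested, beside 2.81% of 6121 genes called lower; 2 of the 3 had an unadjusted p under 0.05, and DESeq2 called 0). Rap1gap came nearest, with 73.3, 76.4, 86.4 and 111 CPM in NT and 51.6, 61.5, 60.6 and 48.1 CPM in R6/2 samples. The groups did not overlap, as for 6.47% of the genes tested, and the log2 fold change was -0.64 ± 0.22 (edgeR, adjusted p = 0.13). Rasgrp1 stood at 73.3, 78.6, 25.4 and 52.5 CPM in NT and at 40.1, 33.9, 39.0 and 38.5 CPM in R6/2, with NT 3 below every R6/2 sample (-0.66 ± 0.27, edgeR, adjusted p = 0.216). Rasgrp2 was measured by only 4 to 12 reads per cortical sample, at 28.2, 18, 25.4 and 22.2 CPM in NT and 22.9, 12.7, 14.4 and 9.62 CPM in R6/2 (-0.57 ± 0.36, edgeR, adjusted p = 0.434).

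Rasd2 was almost not seen in the cortex and did not pass the filter on low counts there. NT samples held 4, 4, 0 and 4 reads and R6/2 samples 1, 0, 1 and 1. In the fit without that filter its log2 fold change was -2.23 ± 0.86 (edgeR, adjusted p = 0.237), and a difference could not be shown at this depth.

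Whether the genotype effect differed between the regions was asked in 1 model over the 16 samples. None of the 4 regulators passed, beside 0.0406% of 7390 genes (3 genes). Rasgrp2 came nearest, its change in the striatum being lower by 1.56 ± 0.42 on the log2 scale than its change in the cortex (edgeR, adjusted p = 0.557). It was the 1 regulator with an unadjusted p under 0.05, and DESeq2 called 0. For Rap1gap the difference of the changes was -0.40 ± 0.26, for Rasgrp1 0.31 ± 0.30 and for Rasd2 1.03 ± 1.29.

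All 4 regulators were higher in the striatum than in the cortex in NT mice, beside 12.7% of all genes tested, and all 4 in R6/2 mice, beside 9.59%. In NT mice the striatal level was 11-fold that of the cortex for Rasd2 (log2 3.46 ± 0.60), 6.91-fold for Rasgrp2 (2.79 ± 0.26), 2.91-fold for Rap1gap (1.54 ± 0.18) and 2.09-fold for Rasgrp1 (1.06 ± 0.21), with adjusted p between 5.08e-08 (Rasgrp2) and 0.000697 (Rasgrp1) by edgeR. In R6/2 mice the ratios were 22.6-fold for Rasd2 (4.5 ± 0.85), 2.58-fold for Rasgrp1 (1.37 ± 0.22), 2.34-fold for Rasgrp2 (1.23 ± 0.30) and 2.21-fold for Rap1gap (1.14 ± 0.19), with adjusted p between 6.9e-05 (Rasgrp1) and 0.00454 (Rasgrp2). The excess of Rasgrp2 in the striatum was thus 6.91-fold in NT and 2.34-fold in R6/2 mice, the same difference that the interaction term measures. The Rasd2 ratio in R6/2 mice rests on 3 reads in the cortex. Both ratios share their samples with the genotype comparisons. For Rasgrp1 in NT mice the log2 ratio rose to 1.68 when ISM reads were left out.

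**Figure D2:**
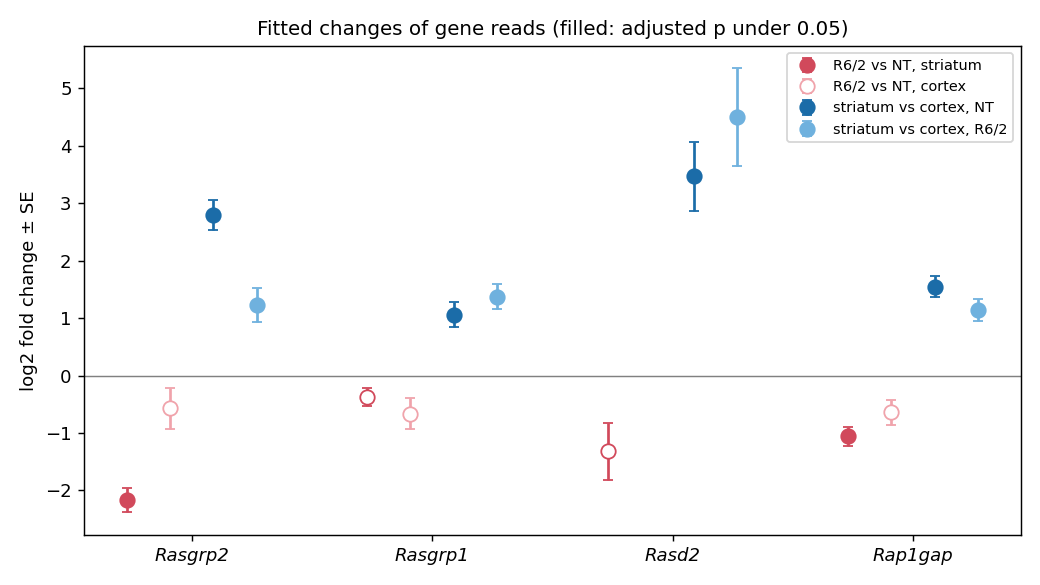
Fitted log2 fold changes (vertical axis, ± SE) of the 4 regulators for R6/2 against NT in the striatum and the cortex and for striatum against cortex in NT and in R6/2 mice; filled points have an adjusted p under 0.05 and Rasd2 has no point for the cortex. Rasgrp2 (-2.17) and Rap1gap (-1.06) are the filled points below 0.

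Over all 4 groups, Rasgrp2 was ordered striatum NT (160 ± 9.44 CPM, SD, n = 4), striatum R6/2 (34.4 ± 12.7), cortex NT (23.4 ± 4.4) and cortex R6/2 (14.9 ± 5.69), and the ranges of the last 3 overlapped from neighbour to neighbour. Rap1gap followed the same order with 258 ± 55.6, 127 ± 40.7, 86.8 ± 17.1 and 55.5 ± 6.67 CPM, only striatum R6/2 and cortex NT overlapping. For Rasgrp1 the means were 128 ± 36, 100 ± 24.9, 57.5 ± 24.2 and 37.9 ± 2.71 CPM, and each neighbour overlapped the next. Rasd2 gave 107 ± 81.5, 34.8 ± 14.4, 7.09 ± 4.91 and 1.44 ± 1.04 CPM, with a gap only between the regions.

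To place each pattern among the 7390 genes tested over all samples, the 3 genes with the highest Pearson correlation of log2 CPM over the 16 samples were listed for each regulator. Rasgrp2 went with Arpp21 (r = 0.97), a phosphoprotein of striatal neurons, Adcy5 (0.934), the main striatal adenylyl cyclase, and Gpr83 (0.931). Rap1gap went with Mobp (0.953), a myelin protein, Adora2a (0.947), the adenosine receptor of indirect pathway neurons, and Smpd3 (0.947). Rasgrp1 went with Reep2 (0.945) and Rnf4 (0.942), among others, and Rasd2 went with Mctp1 (0.95), Pllp (0.936), another myelin protein, and Pcp4l1 (0.932). These points share region, library and number of sets, and oligodendrocyte markers differed between the regions too. Their 6 genes summed to 13288 to 31244 CPM in striatal NT, 13359 to 19934 in striatal R6/2 and 3676 to 7427 CPM in cortical samples, and in the striatum 1 of the 6 was called lower in R6/2. Of the 12 projection neuron markers, 11 were tested in the striatum and 8 were called lower, with a median log2 fold change of -1.84. Over all genes tested there, 3.84% were called lower and the median was -0.0022. In the striatum astrocyte markers summed to 1844 to 3725 CPM in NT and 1187 to 1652 CPM in R6/2 (1 of 5 called lower), and of microglial and endothelial markers 0 of 6 and 0 of 3 tested were called. The part that any of these cell types has in the changes of the 4 regulators was not tested.

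The wider Ras and Rap pathway was described with a list of 72 other genes. In the striatum 39 of them were tested, 2 were lower, beside 3.84% of all genes called lower, and 0 were higher. At an unadjusted p under 0.05 there were 8. The 39 genes tested had a median log2 fold change of -0.24, against -0.0022 over all genes. Both genes that fell encode Ras-like GTPases. Rasl11b went from 80.1 ± 27.2 to 25.8 ± 11.6 CPM (SD, n = 4; log2 -1.66 ± 0.27, edgeR, adjusted p = 0.0034) and Rasl10a from 31.2 ± 7.03 to 12.6 ± 9.84 CPM (-1.66 ± 0.40, adjusted p = 0.0344). Neither was called without the sets term or with the first set of counts alone.

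By role, 2 of 17 tested GTPases were lower in the striatum and the median change of the GTPases was -0.24. Of 9 exchange factors 0 passed, and the median change was -0.33. The fitted change was below 0 for each, but within its SE of 0 for Rgl2 (-0.0082 ± 0.31), Rapgef6 (-0.03 ± 0.25) and Rasgrf1 (-0.05 ± 0.20). The share of all genes with a change below 0 was not counted. Rapgef2, a cyclic nucleotide responsive exchange factor for Rap, stood at -0.76 ± 0.24 (edgeR, adjusted p = 0.11; named for its value). Of 7 GTPase activating proteins 0 passed, and Sipa1l1, which acts on Rap at synapses, stood at -1.05 ± 0.28 (edgeR, adjusted p = 0.0522; named for its value). The 6 kinases downstream had a median of -0.09 and 0 passed, and no feedback inhibitor of the Spred and Spry families had enough reads. At an unadjusted p under 0.05 there were 5 GTPases, 1 exchange factor, 2 GTPase activating proteins and 0 kinases.

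In the cortex 33 genes of the list were tested, 2 were lower and 0 higher, beside 2.81% of all genes lower, with a median of -0.21 against 0.01 over all genes. Rasl11b fell from 192 ± 35.0 to 94.9 ± 9.45 CPM (-1.04 ± 0.19, edgeR, adjusted p = 0.00249) and Rasl10a from 111 ± 33.2 to 42.3 ± 10.3 CPM (-1.37 ± 0.25, adjusted p = 0.00336), so the 2 genes called in the cortex were those called in the striatum. At an unadjusted p under 0.05 there were 7.

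**Figure D3:**
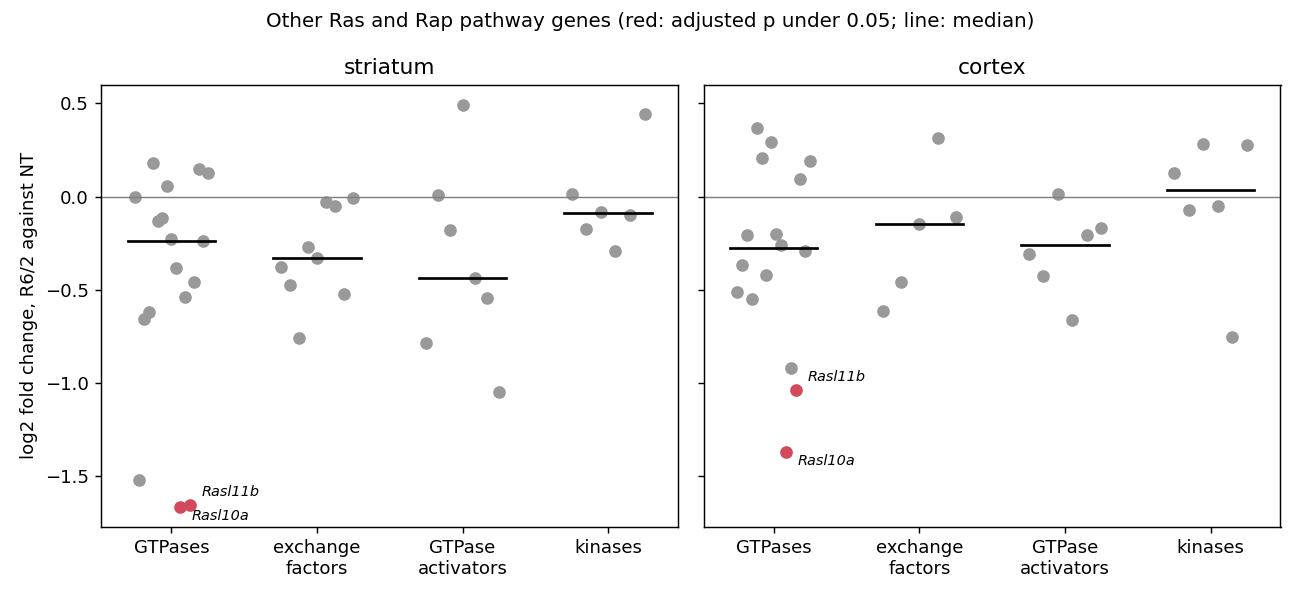
Log2 fold change (vertical axis) of R6/2 against NT for the tested genes of the pathway list, 39 in the striatum and 33 in the cortex, by role; each point is 1 gene, red points have an adjusted p under 0.05 and the line is the median of the role. Only Rasl10a and Rasl11b are red in either region.

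The 4 regulators differed in how their reads were split among isoforms. Rasgrp1 had practically 1 isoform: ENSMUST00000178884, with 17 exons and 5104 nt, held 475 of 489 complete reads (97.1%). Rasd2 was similar, with 140 of 157 complete reads (89.2%) in ENSMUST00000139848, which has 3 exons and 2810 nt. For Rap1gap 113 complete isoforms were seen over 947 reads, and for Rasgrp2 75 over 406 reads. Only 39 of the 1426 gene reads of Rap1gap (2.73%) matched an annotated transcript, and 846 (59.3%) were new combinations of known splice sites.

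Rap1gap reads were led by a pair of isoforms that both join known splice sites in a new way. TALONT000685019 has 25 exons and 3319 nt and held 391 complete reads (41.3%), and TALONT000685024 has 24 exons and 3241 nt and held 226 (23.9%). They differ by 1 exon and 78 nt, and the 1 annotated Rap1gap exon of that length is the one printed above. A further pair with the same difference, TALONT000685014 and TALONT000685021, held 34 and 25 reads. The deposited tables give exon numbers and lengths and not the exons themselves, so that the match rests on length alone.

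Of the reads of the main pair, the longer isoform made up 67.7, 79.6, 78.6 and 80.0% in striatal NT samples 1 to 4 (127, 157, 56 and 5 reads). In striatal R6/2 samples it made up 68.2, 51.0, 51.9 and 72.2% (22, 51, 77 and 18 reads). R6/2 2 and R6/2 3, the deeper samples, were below every NT sample, and R6/2 1 and R6/2 4 were not. In the cortex the shares were 11.1, 35.7, 33.3 and 48.0% in NT and 33.3, 33.3, 12.5 and 69.2% in R6/2 mice, from 3 to 25 reads a sample. All striatal NT samples were thus above all cortical NT samples, while in R6/2 mice the regions overlapped. Pooled over a group, the share was 75.1% in striatal NT, 56.0% in striatal R6/2, 37.3% in cortical NT and 35.8% in cortical R6/2 samples. In the further pair the longer isoform held 21 reads and the shorter 17 in striatal NT samples (55.3% longer), and 9 and 7 in striatal R6/2 samples (56.2%), without the lower share that the main pair had in R6/2, though from few reads. In the cortex the further pair had 4 and 0 reads in NT and 0 and 1 in R6/2 samples. Both pairs were put together after its reads had been seen, and these values are a description.

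**Figure D4:**
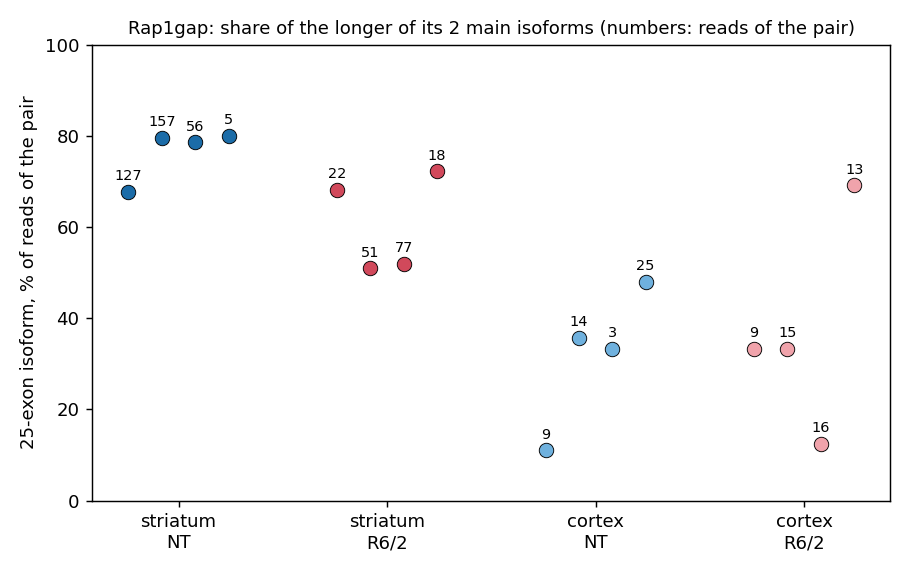
Share of the 25-exon isoform among the reads of the pair of main Rap1gap isoforms (percent, axis from 0 to 100), 1 point per sample by region and genotype, with the number of reads above each point. Striatal NT samples lie between 67.7 and 80.0%, cortical NT samples between 11.1 and 48.0%.

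A test of isoform usage across all genes, with isoforms of at least 10 complete reads, could take in Rap1gap in each comparison and Rasgrp2 in those with striatal samples. Rasgrp1 and Rasd2 have 1 such isoform each and were not tested. Between regions neither was called, beside 1.93% of 5641 genes: Rap1gap had an adjusted p of 0.0778 over 11 isoforms (edgeR diffSpliceDGE with Simes), was the 1 of the 2 with an unadjusted p under 0.05, and Rasgrp2 an adjusted p of 0.613. The lowest p of a single isoform belonged to TALONT000685024, the shorter of the main Rap1gap pair, whose relative usage was lower in the striatum by a log2 value of -0.81, while that of TALONT000685019 was higher by 0.51. A test by gene-level F called 0. Without striatal NT 1 the regional test called Rap1gap (edgeR, adjusted p = 0.0373), and the share of all genes called by that fit was not counted.

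Between R6/2 and NT mice no regulator was called for isoform usage, beside 0.451% of 4437 genes in the striatum and 0.36% of 3058 in the cortex. In the striatum Rap1gap had an adjusted p of 0.348 over 10 isoforms (edgeR with Simes), with an unadjusted p under 0.05, and a gene-level F test called it (adjusted p = 0.0409). The shares of all genes given here are those of the Simes test, and the share called by the F test was not counted. The relative log2 usage of TALONT000685019 changed by -0.30 and that of TALONT000685024 by 0.47. The lowest p values there belonged to 2 minor isoforms, named after their values were seen, TALONT000685048 (2.65) and TALONT000685087 (-2.72), each with no more reads than the 34 of TALONT000685014. Rasgrp2 had an adjusted p of 0.927 over 7 isoforms. In the cortex, where Rap1gap alone was tested with 2 isoforms, the unadjusted p was above 0.05, and the gene-level F test called 0.

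Rasgrp2 reads were spread over several 17-exon isoforms of nearly the same length, and 337 of its 406 complete reads (83.0%) had 17 exons. TALONT000249579 (2221 nt) led with 70 reads, before the known ENSMUST00000035716 (2219 nt, 61 reads), TALONT000249415 (2229 nt, 61 reads), TALONT000249594 (2217 nt, 46 reads) and the known ENSMUST00000167240 (2192 nt, 41 reads). In the striatum ENSMUST00000035716 held 56 of 310 complete reads in NT (18.1%) and 3 of 63 in R6/2 (4.76%), and ENSMUST00000167240 held 39 (12.6%) and 1 (1.59%). TALONT000249594 held 33 (10.6%) and 12 (19.0%). With 3 to 24 complete reads per R6/2 sample, these shares move by several percentage points with 1 read. The isoforms named here were chosen by their reads, most of which came from striatal NT samples. That group gave 56 of the 61 reads of ENSMUST00000035716, 39 of the 41 of ENSMUST00000167240 and 33 of the 46 of TALONT000249594. Such a choice itself favours a lower share in R6/2, although the share of TALONT000249594 was higher there.

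The share of each regulator's main isoform was compared per sample in 7 tests, 1 for each regulator and region with complete reads in every sample, which leaves out Rasd2 in the cortex. A p under 0.05 was reached by 1, Rasgrp2 in the striatum, where TALONT000249579 made up 26.5, 16.7, 16.9 and 16.7% of complete reads in NT and 15.4, 12.5, 8.70 and 0% in R6/2 samples (two-sided exact permutation test, p = 0.0286, the smallest that 70 arrangements can give). For R6/2 4 the 0% stands for 0 of 3 reads. The p was no longer under 0.05 with ISM reads in the denominator, with the first set of counts alone, or without any 1 of the 4 striatal NT samples. Among all genes 4.75% had such a p in the striatum and 3.94% in the cortex. The main isoform was the one with most complete reads over the 16 samples, for the regulators as for all genes. Of the 70 reads of TALONT000249579, 60 came from striatal NT samples, so that this choice itself favours a lower share in R6/2. The main Rap1gap isoform is alike, with 259 of 391 reads from striatal NT samples. For Rap1gap the main isoform made up 48.1 ± 6.18% in NT and 36.5 ± 8.11% in R6/2 striatum (SD, n = 4; exact permutation p = 0.0857), and 20.3 ± 10.5% and 28.2 ± 20.7% in the cortex (exact permutation p = 0.571). For Rasgrp1 it made up 99.0 ± 1.38% and 96.6 ± 3.69% in the striatum (exact permutation p = 0.371) and 98.1 ± 3.85% and 93.7 ± 7.45% in the cortex (exact permutation p = 0.429). For Rasgrp2 in the cortex it was 17.5 ± 23.6% and 5 ± 10.0% (exact permutation p = 0.714), from 1 to 7 complete reads a sample. For Rasd2 in the striatum it was 71.7 ± 17.7% and 90.1 ± 8.17% (exact permutation p = 0.143).

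Last, complete reads were set against reads that stop short. ISM reads made up 52.4% of the gene reads of Rasd2, 44.5% of those of Rasgrp1, 35.0% of those of Rasgrp2 and 33.6% of those of Rap1gap, against 15.9% over all genes. For Rasd2 nearly all of them, 169 of 173, were 1 isoform with a single exon and 2392 nt, close to the annotated last exon of 2395 nt at chr8:75221719-75224113. That exon holds 527 coding bases and the 3′ UTR, and a read of it alone would lack the junction printed above. The match is again by length. Rap1gap had a like isoform, TALONT000686046, with 986 nt, the length of the last exon at chr4:137728875-137729860, and 125 reads.

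The single-exon reads of Rasd2 and its complete reads behaved differently in the striatum. Single-exon reads numbered 24, 21, 39 and 41 in NT samples 1 to 4 and 9, 11, 9 and 7 in R6/2 samples. Complete reads numbered 60, 14, 3 and 2 in NT and 5, 20, 42 and 4 in R6/2 samples. The last exon alone therefore made up 28.2, 58.3, 92.9 and 95.3% of Rasd2 reads in NT and 64.3, 35.5, 17.3 and 58.3% in R6/2 samples. Scaled to the library, single-exon reads stood at 17.0 to 208 CPM in NT and at 9.54 to 17.2 CPM in R6/2. Complete reads stood at 26.3 ± 35.1 CPM in NT and 20.9 ± 16.9 CPM in R6/2 (SD, n = 4), and their ranges overlapped widely. The highest Rasd2 level of any sample, 218 CPM in NT 4, was made of 41 single-exon and 2 complete reads.

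The number of sets moved with this split in both genotypes. Over the 4 striatal samples with 1 set of counts 86.5% of Rasd2 reads were the last exon alone, and over the 4 with 2 sets 31.9%. For Rap1gap the same shares were 19.4% and 4.79%, and NT 4, the shallowest striatal library, had the highest at 55.3%. Rasgrp2 and Rasgrp1 had no frequent isoform of this kind (at most 4 reads over the 16 samples). The part of read length in the difference of Rasd2 between genotypes was not tested.

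**Figure D5:**
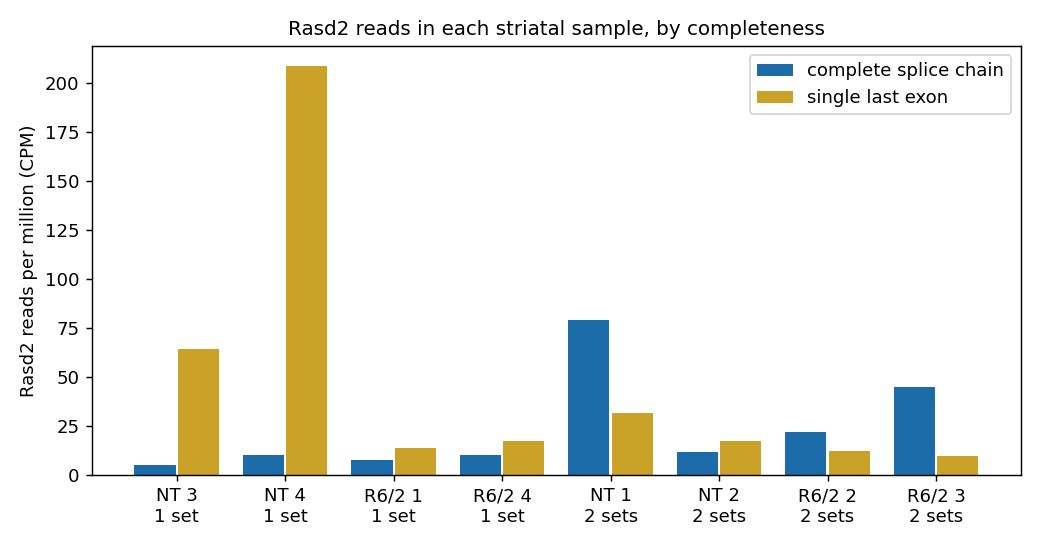
Rasd2 reads scaled to library size (CPM, axis from 0) in each striatal sample, split into reads with a complete splice chain (blue) and reads of the last exon alone (yellow), with samples ordered by their number of sets of counts. NT 3 and NT 4 hold nearly all of their Rasd2 reads as last exons, and NT 1, R6/2 2 and R6/2 3 hold most as complete chains.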

How the data were processed

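The authors made consensus reads with ccs, aligned these to mm10 (minimap2 2.17-r941), cleaned the alignments with TranscriptClean, and used TALON with an Ensembl annotation to sort reads into isoforms. The deposited values are counts of reads per isoform in 20 tables, 2 tables for each of 4 striatal samples, summed here. The labels call these pairs replicates and do not say whether libraries or runs were repeated. Chi-square per gene was 2.17 to 2.63 between the tables of a sample and 2.3 to 22.6 between samples of a group. A gene's count adds its known, ISM, NIC and NNC reads. Genomic, antisense and intergenic reads were left out.

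Changes were tested with edgeR 4.0.16 (R 4.3.3: TMM, filterByExpr, quasi-likelihood test, Benjamini-Hochberg threshold 0.05). SE is the fold change divided by the root of F. CPM use TMM over the 16 samples. Striatal models hold the number of tables, and region contrasts take the striatum at the average of 1 and 2. Isoform usage was tested with diffSpliceDGE on isoforms with at least 10 complete reads. Two-sided exact permutation tests compared shares. Alternatives were upper-quartile scaling, DESeq2 1.42.0, other filters and read classes, first tables, no table term, 1 fit of all samples, a sample-number block and leaving out each sample. Fits within samples of 1 or 2 tables were added after seeing the data. The edgeR tests were first tested on simulated data. Named are the 4 regulators, isoforms with 5% of complete reads in a group and 20 reads, up to 2 pathway genes per role and region with adjusted p under 0.05, and 3 genes per regulator by correlation, of which 1 is not reported here. Members, lists and tests were chosen with earlier results of these data known. Counting error sets the precision of low counts.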

Additional observations from a re-analysis of the deposited data

Results flagged for a closer look

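In 34 sets of 4 samples (levels, main isoform shares and the Rap1gap pair), 1 sample stood apart from the other 3 by Dixon's ratio in 4 sets. Chance gives about 1 in 20 for continuous values, which does not hold for 2 of the 4, where the other 3 samples were tied at 0 or 100%. For the share of TALONT000249579 among complete Rasgrp2 reads these were cortical R6/2 3, at 20% (1 of 5 reads) with the others at 0%, and striatal NT 1, at 26.5% with the others at 16.7 to 16.9%. For the share of ENSMUST00000178884 in Rasgrp1 it was cortical NT 2, at 92.3% (12 of 13 reads) with the others at 100%. For the longer isoform of the Rap1gap pair it was striatal NT 1, at 67.7% with the others at 78.6 to 80.0%. No level in CPM stood apart in this way.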

How the results depend on the processing

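The count of regulators lower in R6/2 striatum (2) became 1 with ISM reads left out, with the first tables only, with no table term and within the samples of 2 tables. In each of these 4 fits Rasgrp2 remained and Rap1gap was lost, and the cause was not tested. Over all alternatives Rasgrp2 lay between -2.49 and -1.95. Within the samples of 1 table Rap1gap was lost too (-1.19, edgeR, adjusted p = 0.0945) and Rasd2 was called (-2.32, adjusted p = 0.0484). In those samples complete Rasd2 reads averaged 7.54 CPM in NT and 8.71 CPM in R6/2, and single-exon reads 136 and 15.4 CPM (n = 2 each). Rasd2 was also called without striatal NT 2 (-1.76, edgeR, adjusted p = 0.0137) and without a filter, where its SE was smaller. Within the samples of 2 tables Rasd2 was at -0.62. Pathway genes called in the striatum (2) numbered 4 without a filter and in 1 fit of all samples, 1 with ISM reads left out and within samples of 1 table, and 0 with the first tables, with no table term and within samples of 2 tables; leaving out 1 sample gave 1 to 5. Striatal isoform usage went from 0 to 1 by the gene-level F test, and regional usage from 0 to 0 or 1 on leaving out 1 sample. The 1 main isoform share with p under 0.05 became 0 with ISM reads in the denominator, with the first tables, and within numbers of tables (36 arrangements, smallest p 0.056); leaving out 1 sample gave 0 to 1. With ISM reads in the denominator the Rasgrp1 share differences turned to 4.72 (cortex) and 4.47 (striatum) percentage points, and the Rap1gap difference in the cortex ran from -1.45 to 15.2 on leaving out 1 sample. Counts of regulators called in the cortex and in the interaction were 0 under every alternative run, and those between regions (4 and 4) held under all but 1. With ISM reads left out the counts between regions were 3 and 3, since Rasd2 was then not tested. In that setting Rap1gap alone was tested in the cortex, and Rasd2 was not tested in the interaction either. Depth limits Rasd2 in the cortex and the isoform shares, some of which rest on 1 to 3 complete reads in a sample, in NT as in R6/2.

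Sample numbers shared between groups do not mark a shared mouse in the labels, and deviations of same-numbered samples correlated between -0.571 and 0.618, with 8 of 16 closest to their own number. With a replicate block the regulators called were 0 in the cortex, 2 in the striatum and 4 between regions in either genotype, pathway genes 2 and 2, and main isoform shares 0 (16 sign arrangements, smallest p 0.12).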

Other observations

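Rasgrp1 also had reads of the genomic class, which overlap the gene but match no splice chain and were not counted above. They numbered 279, which is 24.1% of all its reads with that class included, against 7.81% over all genes, 1.72% for Rap1gap, 2.65% for Rasd2 and 1.26% for Rasgrp2. By group they made up 25% in striatal NT, 18.1% in striatal R6/2, 32.4% in cortical NT and 29.8% in cortical R6/2 samples. By sample the range was 13.9% (striatal R6/2 3) to 55.3% (striatal NT 4). With this class added to the gene counts, the log2 fold change of Rasgrp1 in the striatum was -0.52 (edgeR, adjusted p = 0.0509), against -0.38 without it. In the cortex it was -0.72 (edgeR, adjusted p = 0.117), against -0.66.

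The annotated 78-base Rap1gap exon, matched to the isoform difference by length alone, holds neither TGTGT nor TGACT on its own strand. Of the 2120 annotated exons of that length in GENCODE M21, 8.07% hold TGTGT and 7.88% hold TGACT.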
